A study of Mus musculus with 6 samples.

Results

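The genes described are ATF4 and 32 further genes that act with it or downstream of it: stress signalling genes, enzymes of amino acid and one-carbon synthesis, amino acid transporters and cytosolic aminoacyl-tRNA synthetases. They were listed by gene symbol for their known roles, and all 33 symbols were found among the 23284 in the count files. Messenger RNA was sequenced from MIN6 cells, a mouse insulinoma line that serves as a model of pancreatic beta cells. Cells in the Paupar KD group (3 libraries) received a Paupar ASO, and those in the control KD group (3 libraries) received a Control ASO. An ASO is an antisense oligonucleotide that lowers its target RNA. Paupar is a long noncoding RNA made next to the transcription factor gene Pax6, and the comparison asks which genes differ when it is reduced. Both groups are the same MIN6 line, and the labels give no time, dose or culture of origin. Paupar itself was not analysed here, since no symbol in the files matched it, so the knockdown was not checked in these libraries.

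ATF4 is a basic leucine zipper transcription factor at the centre of the integrated stress response. When amino acids run short or unfolded protein builds up in the endoplasmic reticulum, kinases phosphorylate the translation factor eIF2, most protein synthesis slows, and the ATF4 message is translated more efficiently. ATF4 protein then binds with C/EBP family partners and switches on genes that make amino acids, import them and charge tRNAs, together with feedback genes that end the response or, if stress lasts, promote cell death. Beta cells depend on this pathway because insulin is made in large amounts in the endoplasmic reticulum. Because ATF4 is controlled largely by translation, the level of its own message need not follow its activity, and its targets are read beside it.

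The core of the amino acid response element, the sequence that ATF4 binds with its partners, was present in the promoter windows of 12 members. It was searched as TGATGNAA on both strands, in RefSeq promoter windows (GRCm38.p6) that run from 250 bases before to 50 bases after each start site. A window was found for 28 of the 33 members, and 12 of the 28 (42.9%) held a match in at least 1 window, against 1219 of 27025 genes in the table (4.51%). Matches were in 4 of 6 stress signalling genes, 5 of 8 synthetases, 1 of 2 transporters, 2 of 8 synthesis enzymes and 0 of 4 transcription factor genes. The members were listed for known roles with or downstream of ATF4, so this share describes the list and is not independent of it. A match is not a measured binding site. The 8 stretches below show the match in capitals, read 5′ to 3′ on the strand of the gene, with flanking bases in lower case. On the reverse strand the element reads TTNCATCA. They are from RefSeq and were located in the mm9 assembly by exact match: Trib3 at chr2:152169747-152169812 (minus strand), Chac1 at chr2:119176755-119176822 (plus), Nupr1 at chr7:133769057-133769124 (minus), Vldlr at chr19:27291280-27291347 (plus), Asns at chr6:7643195-7643262 (minus), Slc7a11 at chr3:50247564-50247631 (minus), Iars at chr13:49777476-49777543 (plus) and Tars at chr15:11329391-11329458 (minus).
Trib3: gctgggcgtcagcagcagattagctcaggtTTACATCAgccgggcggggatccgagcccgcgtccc
Chac1: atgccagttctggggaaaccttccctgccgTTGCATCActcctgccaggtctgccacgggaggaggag
Nupr1: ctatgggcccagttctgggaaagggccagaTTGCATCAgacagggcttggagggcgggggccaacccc
Vldlr: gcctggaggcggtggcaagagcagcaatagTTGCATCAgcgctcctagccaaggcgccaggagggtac
Asns: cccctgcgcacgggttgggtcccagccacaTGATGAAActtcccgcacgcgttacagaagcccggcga
Slc7a11: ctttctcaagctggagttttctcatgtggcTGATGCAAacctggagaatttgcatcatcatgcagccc
Iars: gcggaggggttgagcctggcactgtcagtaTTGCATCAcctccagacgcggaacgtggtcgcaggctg
Tars: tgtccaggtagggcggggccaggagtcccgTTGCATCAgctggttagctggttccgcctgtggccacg
Trib3, Chac1, Nupr1 and Vldlr are shown because they include the members that varied most between libraries, Asns because its level was even, Slc7a11 for a transporter, and Iars and Tars for synthetases. The Slc7a11 promoter holds a further match on the other strand, which starts at position -47 and lies in the lower-case bases of the stretch above. Positions count from the first base of the RefSeq transcript as position 1, with no position 0. The match shown starts at -15 in Tars, -23 in Asns, -66 in Slc7a11, -110 in Nupr1, -193 in Chac1 and -200 in Vldlr. In Iars (from position 8) and Trib3 (from position 15) it lies within the first bases of the RefSeq transcript. Gene starts in the GENCODE M1 annotation (mm9) differ for some members. There the Vldlr, Nupr1 and Asns matches lie inside the gene model and the Trib3 match before it. Atf4, Ddit3 and Ppp1r15a had no match in this window, which says nothing of sequence outside it.

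Library totals were 16973622, 20302121 and 23434166 counts in Paupar KD replicates 1 to 3 and 22463557 to 28693863 in control KD. The lowest total was in Paupar KD replicate 1. The Paupar KD libraries varied more between themselves (biological coefficient of variation 18.8%) than the controls did (4.95%). Beta cell genes were abundant, with 9 of 9 markers tested. Their summed level was 54053, 35631 and 35898 CPM (counts scaled to a common library size) in Paupar KD replicates 1 to 3, against 30079.5 to 34180 CPM in the controls. Ins1, Ins2 and Iapp made up most of that sum. Of the 9 log2 fold changes, 7 were positive and 2 negative. Ins2 and Iapp had all 3 Paupar KD values above all controls, where 13.7% of all genes did so. Ins2 was at 28450, 18601 and 18696 CPM in Paupar KD and 14430 to 17207 CPM in control KD. Mafa had the largest log2 fold change of the 9, at 670, 260 and 222 CPM in Paupar KD and 180 to 246 CPM in control KD. Slc30a8 was lower in all 3 Paupar KD libraries (425, 381 and 354 CPM) than in every control (464 to 487 CPM). Of all genes, 13.3% lay below in this way. Slc2a2 was at 315, 237 and 236 CPM in Paupar KD and 310 to 322 CPM in control KD. Of 18 markers of other pancreatic, mesenchymal, endothelial and immune cells, 5 had enough counts to be tested. Cpa1, Prss1, Sox9 and Ptprc were at 0 in all 6 libraries. The summed level of the 6 alpha, delta and PP cell markers was 44.8 to 129.9 CPM in Paupar KD and 70.5 to 80.2 CPM in control KD, nearly all of it Gcg. Acinar and duct markers summed to 0.685 to 1.003 CPM in Paupar KD and 1.19 to 1.66 CPM in control KD, and mesenchymal, endothelial and immune markers to 2.49 to 3.30 CPM in Paupar KD and 3.66 to 4.12 CPM in control KD. In such bulk libraries, fewer cells in a state and less RNA per cell cannot be told apart.

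Of the 33 members, 32 had enough counts to be tested, and 0 of them passed edgeR's quasi-likelihood test at an adjusted p of 0.05 in either direction, where 6 of 13039 genes (0.046%) did. At an unadjusted p under 0.05 the test gave 1 member, Psph (3.13%), against 2314 genes (17.7%). DESeq2 called 0 members, against 508 genes (3.9%). The 3 Paupar KD values lay above the 3 control values for 3 members, Psph, Mthfd2 and Mars (9.38%), where 13.7% of all genes did so. They lay below for 2 members, Slc7a5 and Gars (6.25%), where 13.3% of all genes did so. The median log2 fold change of Paupar KD over control KD was -0.015 over the 32 members, 13 of them positive and 19 negative (18 and 14 with upper-quartile scaling factors), and 0.0057 over all genes tested. Over the members it was 0.046 (21 positive and 11 negative) without Paupar KD replicate 1, -0.038 (14 and 18) without replicate 2 and -0.11 (10 and 22) without replicate 3. Single Paupar KD libraries, however, lay far from the controls for some members, and on opposite sides of them.

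**Figure D1:**
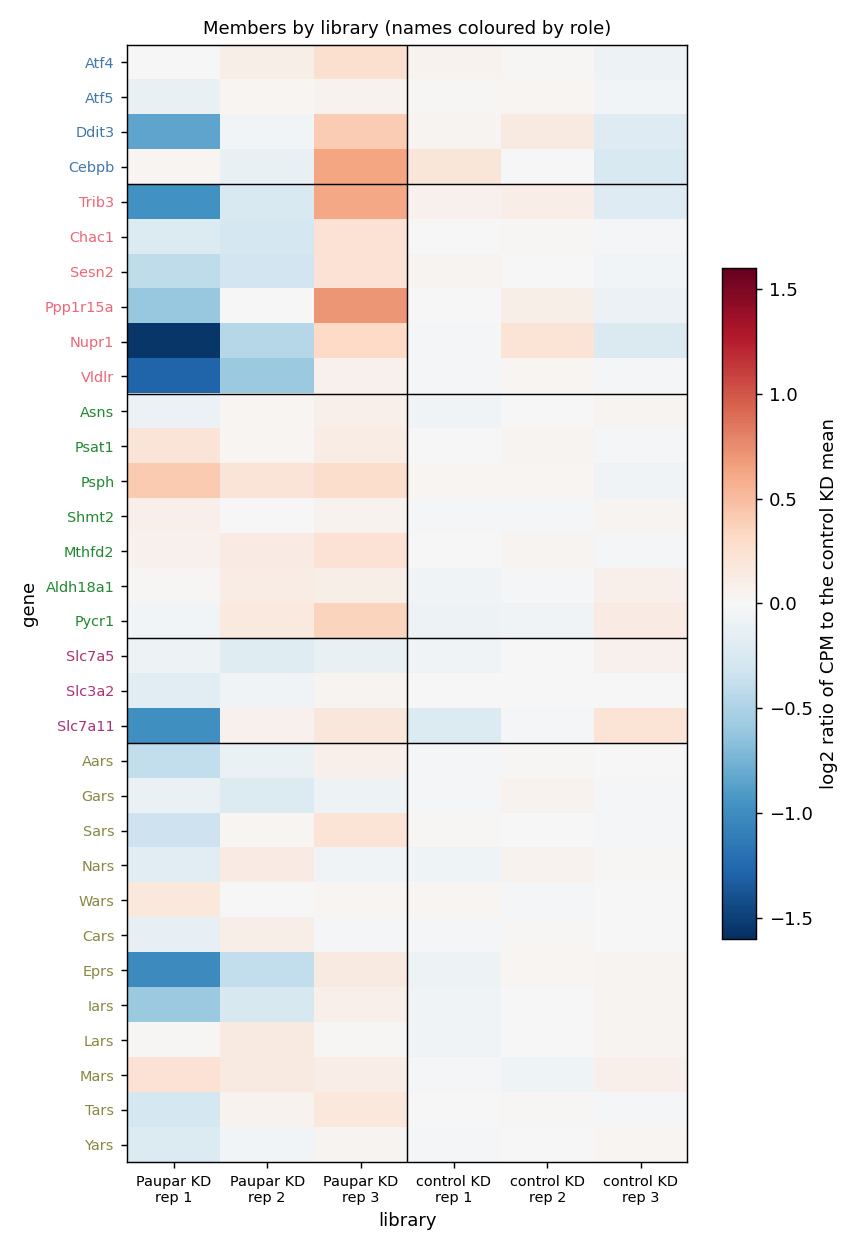
Each row is a tested member, grouped by role, and each column a library; colour gives the log2 ratio of its CPM to the mean of the 3 control KD libraries. Paupar KD replicate 1 is blue for Ddit3, the stress genes and several synthetases. Replicate 3 is red for Ddit3, Cebpb, Trib3 and Ppp1r15a, but near white for Vldlr and most synthetases. Most synthesis enzymes stay pale in all 6 libraries, with Psph in replicate 1 and Pycr1 in replicate 3 the strongest among them.

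The transcription factor genes themselves differed little in the mean. Atf4 was at 411, 439 and 493 CPM in Paupar KD replicates 1 to 3, against 427, 419 and 390.3 CPM in control KD replicates 1 to 3 (edgeR log2 fold change 0.12 ± 0.097 SE, adjusted p = 0.529). Replicates 2 and 3 of Paupar KD were above every control, and replicate 1 was within the control range. Atf5, a relative of ATF4 that is under the same translational control, was at 179.8, 201 and 204 CPM in Paupar KD and 199, 200.2 and 189 CPM in control KD (edgeR log2 fold change -0.0078 ± 0.086 SE, adjusted p = 0.972). Its replicate 1 was just below the controls and replicates 2 and 3 just above them. Ddit3, which encodes CHOP, a partner of ATF4 that promotes cell death under lasting stress, was at 40.5, 70.2 and 96.5 CPM in Paupar KD and 74.7, 79.8 and 63.01 CPM in control KD (edgeR log2 fold change -0.067 ± 0.27 SE, adjusted p = 0.915). Here replicate 1 was below every control and replicate 3 above every control, a difference of 2.39-fold between libraries of the same group. Cebpb, a C/EBP family member that dimerizes with ATF4, had the largest positive log2 fold change of these 4 genes, at 23.8, 21.4 and 36.1 CPM in Paupar KD and 26.8, 23.5 and 19.8 CPM in control KD (edgeR log2 fold change 0.22 ± 0.21 SE, adjusted p = 0.595). Only its replicate 3 was above the controls, and the log2 fold change without that library was -0.045. Of these 4 genes, 2 log2 fold changes were positive and 2 negative, and Atf5 turned positive with upper-quartile scaling. Their median was 0.056, against 0.18 without Paupar KD replicate 1 and -0.044 without replicate 3. Ddit3 (chr10:126727830-126733344, plus strand, mm9) and Mars (minus strand) overlap by 68 bases, and in all 9 of the 33 members overlap a protein-coding gene on the opposite strand (also Atf5, Cebpb, Ppp1r15a, Shmt2, Slc7a5, Lars and Yars). The strand setting of the counts is not given in the sources used here, so reads from any exon shared in this way cannot be told apart. With other gene types counted too, 17 of the 33 members overlap another annotated gene. The longest overlaps on the same strand, where strand would not separate reads, are Sesn2 with Gm12981 (6089 bases) and Aldh18a1 with Gm15801 (522 bases). All these overlaps are of whole gene spans, introns included, so whether exons are shared was not determined.

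Stress signalling and feedback genes showed the widest differences between the Paupar KD libraries. Trib3, a pseudokinase that restrains ATF4 and AKT signalling, was at 82.5, 137 and 248 CPM in Paupar KD replicates 1 to 3, against 169.8, 174 and 140.2 CPM in control KD replicates 1 to 3 (edgeR log2 fold change -0.050 ± 0.33 SE, adjusted p = 0.953). Replicates 1 and 2 were below every control and replicate 3 was above every control. Ppp1r15a, the regulatory subunit that brings a phosphatase to eIF2 and so ends the response, was at 31.6, 48.2 and 78.9 CPM in Paupar KD and 47.97, 51.2 and 45.3 CPM in control KD (edgeR log2 fold change 0.14 ± 0.28 SE, adjusted p = 0.820). It had the same low replicate 1 and high replicate 3, with replicate 2 among the controls. Nupr1, a small stress-induced chromatin protein, was at 10.9, 23.1 and 39.6 CPM in Paupar KD and 31.3, 36.97 and 27.1 CPM in control KD (edgeR log2 fold change -0.36 ± 0.38 SE, adjusted p = 0.637). Replicate 1 was further below its controls than in any other tested member, replicate 2 was also below every control, and replicate 3 was above them. Chac1, an enzyme that breaks down glutathione, was at 56.6, 54.1 and 77.2 CPM in Paupar KD and 65.4, 66.7 and 64.9 CPM in control KD (edgeR log2 fold change -0.067 ± 0.14 SE, adjusted p = 0.827). Sesn2, which senses leucine upstream of mTORC1, was at 102, 109.7 and 159 CPM in Paupar KD and 139.9, 134 and 132 CPM in control KD (edgeR log2 fold change -0.13 ± 0.16 SE, adjusted p = 0.692). Both had replicates 1 and 2 below every control and replicate 3 above every control.

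Vldlr, the very low density lipoprotein receptor, had the log2 fold change of largest size among the members. It was at 144, 231 and 365 CPM in Paupar KD replicates 1 to 3, against 345, 356 and 343 CPM in control KD replicates 1 to 3. Its mean was 246 ± 111 CPM in Paupar KD and 348 ± 7.27 CPM in control KD (SD, n = 3 each), 0.708 times the control level (edgeR log2 fold change -0.50 ± 0.28 SE, adjusted p = 0.374). Replicates 1 and 2 lay well below the controls, while replicate 3 was slightly above them. Of the 6 genes of this group, 0 passed, 1 log2 fold change was positive and 5 were negative, and their median was -0.099. Set against the control mean, the median of the 6 lay at a log2 difference of -0.78, -0.29 and 0.28 in Paupar KD replicates 1 to 3.

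**Figure D2:**
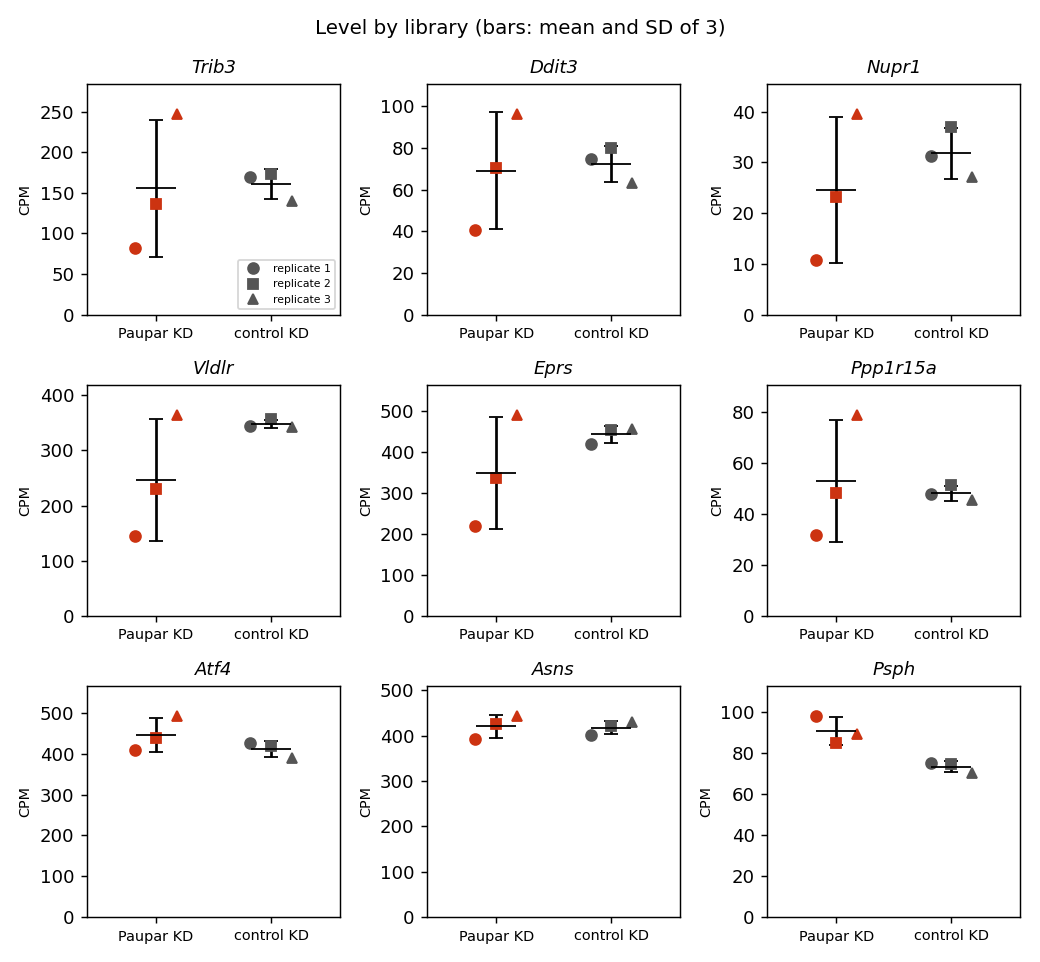
Each panel gives the CPM of 1 gene in the 3 Paupar KD libraries (red, left) and the 3 control KD libraries (grey, right), with marker shape for the replicate number, and a bar and line for mean and SD. Trib3, Ddit3, Nupr1, Vldlr, Eprs and Ppp1r15a spread widely in Paupar KD, with replicate 1 lowest and replicate 3 highest, while Atf4, Asns and Psph lie close together.

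The enzymes of amino acid and one-carbon synthesis were the most even group among the Paupar KD libraries, and their log2 fold changes were positive for 7 of 7 tested genes under TMM, RLE, upper-quartile and library-size scaling, with a median of 0.12, although 0 passed. Asns, asparagine synthetase and the classic target of the amino acid response, was at 393, 425 and 443 CPM in Paupar KD replicates 1 to 3, against 402, 420.1 and 430.1 CPM in control KD replicates 1 to 3 (edgeR log2 fold change 0.010 ± 0.086 SE, adjusted p = 0.963). Replicate 1 was just below the controls and replicate 3 just above, and the highest level was 1.13-fold the lowest among the Paupar KD libraries and 1.07-fold among the controls. Serine synthesis runs through PHGDH, PSAT1 and PSPH in turn. Psat1 was at 555, 488 and 523 CPM in Paupar KD and 476, 494 and 469.8 CPM in control KD (edgeR log2 fold change 0.12 ± 0.086 SE, adjusted p = 0.469), with replicates 1 and 3 above every control. Psph, the last step, had the smallest p of all members, at 98.1, 84.96 and 89.2 CPM in Paupar KD and 75.1, 74.7 and 70.4 CPM in control KD. Its mean was 90.7 ± 6.69 CPM in Paupar KD and 73.4 ± 2.60 CPM in control KD (SD, n = 3 each), 1.24-fold the control level (edgeR log2 fold change 0.31 ± 0.088 SE, adjusted p = 0.173). All 3 Paupar KD libraries were above all controls, and the adjusted p missed the threshold, with DESeq2 giving an adjusted p of 0.0732.

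Phgdh, the first enzyme of the same pathway, was close to absent from the counts. It had 4, 3 and 1 counts in Paupar KD replicates 1 to 3 and 0, 3 and 2 counts in control KD replicates 1 to 3, which is 0.236, 0.147 and 0.0429 CPM in Paupar KD and 0, 0.128 and 0.0698 CPM in control KD. It was the 1 member left out of the test, and no fold is given, since nearly all values are at or under 3 counts. RefSeq annotates a pseudogene copy of Phgdh, and the labels do not say how the authors treated reads with more than 1 possible origin, so the low count was not tested against that.

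Folate and proline enzymes also differed little. Mthfd2, a mitochondrial folate enzyme, was at 243, 255 and 272 CPM in Paupar KD and 231, 238 and 226 CPM in control KD (edgeR log2 fold change 0.15 ± 0.083 SE, adjusted p = 0.375). The groups did not overlap, although the mean difference was only 1.11-fold. Shmt2, which feeds the same mitochondrial pathway from serine, was at 181, 171 and 177 CPM in Paupar KD and 167, 168 and 176 CPM in control KD (edgeR log2 fold change 0.048 ± 0.078 SE, adjusted p = 0.775). Aldh18a1 and Pycr1 act at the start and the end of proline synthesis. Aldh18a1 was at 246, 265 and 259.7 CPM in Paupar KD and 233, 239 and 258 CPM in control KD (edgeR log2 fold change 0.080 ± 0.084 SE, adjusted p = 0.635). Pycr1 was at 24.2, 27.8 and 31.97 CPM in Paupar KD and 23.5, 23.9 and 27.4 CPM in control KD (edgeR log2 fold change 0.17 ± 0.13 SE, adjusted p = 0.501). In these 3 genes the groups overlapped, with 2 Paupar KD libraries above every control in each.

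The amino acid transporter genes had negative log2 fold changes in 3 of 3 cases under the same scalings, and 0 passed (with quality weights Slc7a11 turned positive). Slc7a5 and Slc3a2 encode the light and heavy chain of LAT1, which exchanges large neutral amino acids such as leucine. Slc7a5 was at 669, 619 and 652 CPM in Paupar KD replicates 1 to 3, against 677, 703 and 739 CPM in control KD replicates 1 to 3 (edgeR log2 fold change -0.13 ± 0.083 SE, adjusted p = 0.440). All 3 Paupar KD libraries were below all controls, at 0.916 times the control level. In the GENCODE M1 annotation the span of a further coding gene model covers all of Slc7a5 on the opposite strand. Whether their exons overlap was not determined, so the limit on strand given above may apply to its counts. Slc3a2 was at 363, 397 and 427 CPM in Paupar KD and 413, 415 and 411 CPM in control KD (edgeR log2 fold change -0.062 ± 0.089 SE, adjusted p = 0.742), with replicates 1 and 2 below the controls and replicate 3 above. Slc7a11, the cystine importer xCT that supplies cysteine for glutathione, was at 11.5, 23.8 and 25.7 CPM in Paupar KD and 19.4, 22.1 and 26.3 CPM in control KD (edgeR log2 fold change -0.15 ± 0.27 SE, adjusted p = 0.797). Replicate 1 of Paupar KD was at its lowest, well below the controls, and the other 2 were within the control range. The median of the 3 transporters was -0.13, and -0.0091 without Paupar KD replicate 1.

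The 12 cytosolic tRNA synthetases, which load amino acids onto their tRNAs, gave 0 calls, 3 positive and 9 negative log2 fold changes (7 and 5 with upper-quartile factors), and a median of -0.023. That median was 0.021 (7 positive and 5 negative) without Paupar KD replicate 1, -0.087 without replicate 2 and -0.11 without replicate 3. Eprs, which charges both glutamate and proline tRNAs, had the one of largest size, at 219, 336 and 491 CPM in Paupar KD replicates 1 to 3, against 419.6, 454 and 456 CPM in control KD replicates 1 to 3 (edgeR log2 fold change -0.35 ± 0.25 SE, adjusted p = 0.477). Replicates 1 and 2 were below every control and replicate 3 above every control, as in the stress genes. Iars, for isoleucine, had the same order of libraries at 183, 231 and 293 CPM in Paupar KD and 265, 278 and 286 CPM in control KD (edgeR log2 fold change -0.23 ± 0.16 SE, adjusted p = 0.462). Aars, for alanine, was at 469, 571 and 650.4 CPM in Paupar KD and 601, 625 and 618 CPM in control KD, and Sars, for serine, at 333, 429 and 489 CPM in Paupar KD and 427, 422 and 413 CPM in control KD. For both, replicate 1 was below every control and replicate 3 above every control. Tars, for threonine, had the same shape at 111, 140.4 and 152 CPM in Paupar KD and 135, 136 and 133 CPM in control KD. Yars, for tyrosine, was at 149, 169 and 179 CPM in Paupar KD and 170.01, 174 and 177 CPM in control KD, again with replicate 1 lowest and replicate 3 just above the controls. The edgeR adjusted p-values of these 4 genes were 0.609 (Aars), 0.973 (Sars), 0.993 (Tars) and 0.721 (Yars).

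Other synthetases did not share that order. Gars, for glycine, was at 499, 459.9 and 506 CPM in Paupar KD and 527, 558 and 527 CPM in control KD (edgeR log2 fold change -0.14 ± 0.083 SE, adjusted p = 0.404), and all 3 Paupar KD libraries were below all controls. Mars, for methionine, was at 225, 211 and 207 CPM in Paupar KD and 189, 184 and 203 CPM in control KD (edgeR log2 fold change 0.16 ± 0.084 SE, adjusted p = 0.343), and all 3 were above all controls. Wars, for tryptophan, ranged 211 to 235 CPM in Paupar KD and 207 to 214 CPM in control KD, and Lars, for leucine, 145 to 159 CPM in Paupar KD and 139 to 149 CPM in control KD. Nars, for asparagine, ranged 307 to 381 CPM in Paupar KD and 331 to 360.5 CPM in control KD, and Cars, for cysteine, 131 to 152 CPM in Paupar KD and 140.2 to 145 CPM in control KD. These 4 genes overlapped between groups, with edgeR adjusted p-values of 0.732 (Lars), 0.682 (Wars), 0.906 (Nars) and 0.929 (Cars).

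**Figure D3:**
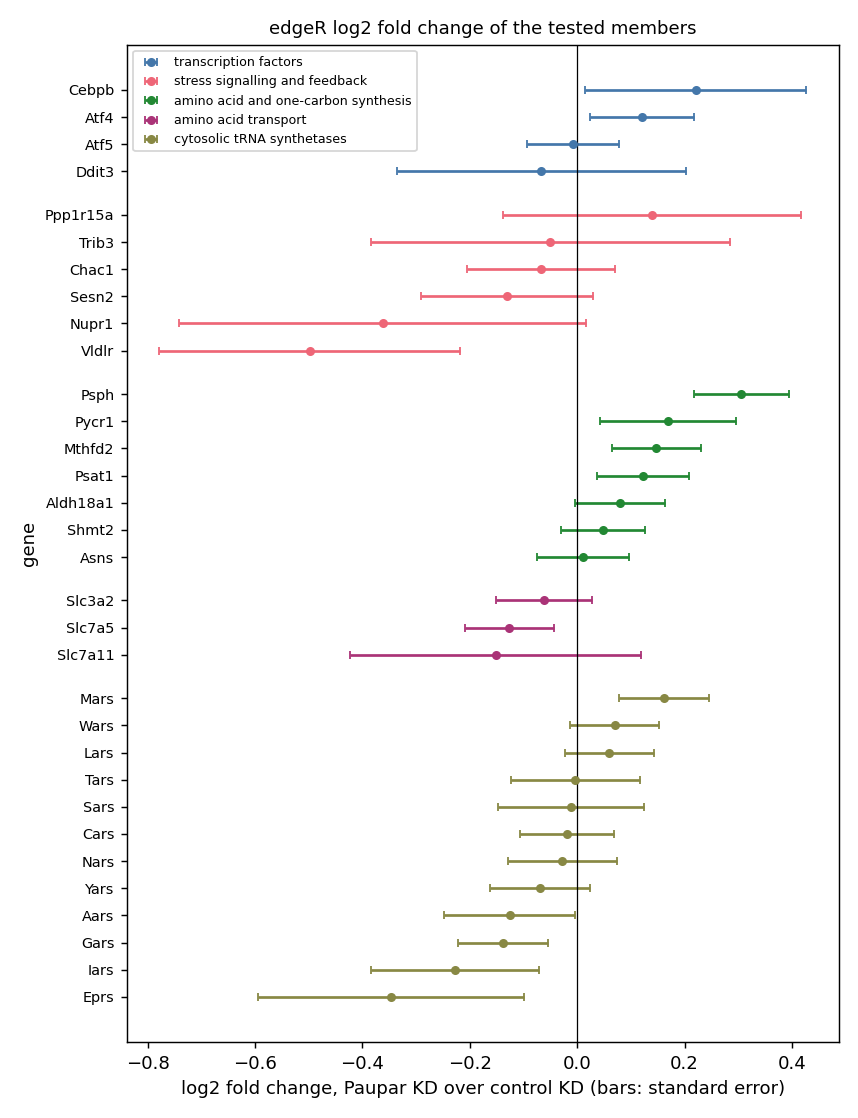
Points give the edgeR log2 fold change of Paupar KD over control KD for each tested member and bars its standard error, with colour for the role. Synthesis enzymes lie at or above 0, the 3 transporters below it, and the bars are widest for Nupr1, Trib3, Vldlr, Ppp1r15a, Slc7a11, Ddit3 and Eprs.

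The spread between libraries was wide in a few members and narrow in most. The highest over the lowest level of a member had a median of 1.22 among the Paupar KD libraries and 1.07 among the controls, where all tested genes gave 1.31 in Paupar KD and 1.11 in control KD. It was over 2-fold in Paupar KD for 7 of 32 members (21.9%), namely Nupr1 (3.65), Trib3 (3.001), Vldlr (2.54), Ppp1r15a (2.49), Ddit3 (2.39), Eprs (2.24) and Slc7a11 (2.23), and for 10.6% of all tested genes or 4.99% of those with a mean of at least 5 CPM, which all 32 members reached. Over the controls it exceeded 2-fold for 0 members. By role, the median was 2.52 in Paupar KD and 1.10 in control KD for stress signalling genes, against 1.13 in Paupar KD and 1.07 in control KD for synthesis enzymes and 1.22 in Paupar KD and 1.05 in control KD for synthetases. Of the 12 members with the response element in the promoter window 4 exceeded 2-fold, and of the 15 tested members with a window and no element 3 did.

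**Figure D4:**
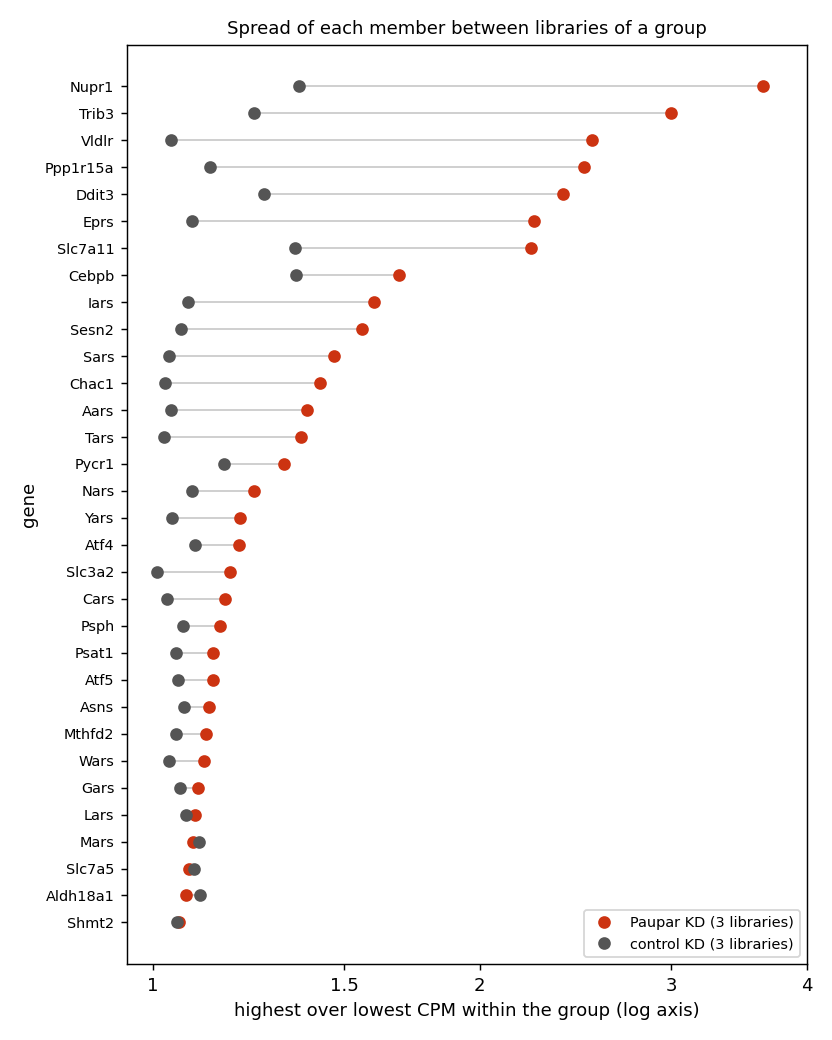
For each tested member, the highest over the lowest CPM is given among the 3 Paupar KD libraries (red) and among the 3 control KD libraries (grey) on a log axis. The 7 genes at the top exceed 2-fold in Paupar KD, and no member does in the controls.

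Paupar KD replicate 1 had the lowest and replicate 3 the highest of the 3 Paupar KD values in 19 of 32 members (59.4%), an order found in 25.5% of all tested genes. The reverse order was found in 1 member, Mars (3.13%), and in 25.8% of all tested genes. In Paupar KD replicate 1, 21 members (65.6%) were below every control and 6 (18.8%) above, where 42.6% of all genes were below and 41.9% above. In replicate 2, 12 members (37.5%) were below and 12 (37.5%) above every control, close to the 37.1% of all genes below and 36.6% above. In replicate 3, 2 members (6.25%) were below and 26 (81.3%) above every control, where 34.8% of all genes were below and 37.3% above. These counts were made after the values were seen, and the members of a pathway are not independent of each other. Library totals, given above, rose in the same order from Paupar KD replicate 1 to replicate 3. The summed beta cell markers, given above and mostly Ins1, Ins2 and Iapp, also set replicate 1 apart. The part of depth and of these markers in this order was not tested.

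The calls depended on single libraries. Without Paupar KD replicate 3, 3 of 32 members (9.38%) were called, 3 lower and 0 higher in Paupar KD. Of 13148 genes in that fit, 745 were called lower and 611 higher, 10.3% in either direction. The 3 members were Vldlr (log2 fold change -0.89, edgeR adjusted p = 0.0266), Sesn2 (log2 fold change -0.35, edgeR adjusted p = 0.0418) and Eprs (log2 fold change -0.68, edgeR adjusted p = 0.0459). Without Paupar KD replicate 1, 0 members were called, where 1.91% of genes were. Limma-voom with sample quality weights called 1 member, Vldlr (log2 fold change -0.56, adjusted p = 0.0136). Of 13039 genes it called 950 lower and 745 higher, 13% in either direction. The direction of several members also turned with 1 library. Without replicate 1 Trib3 had a log2 fold change of 0.25 and Ddit3 of 0.20, and without replicate 3 Trib3 was at -0.56 and Ddit3 at -0.39. The median of the stress signalling members was -0.010 without replicate 1, -0.019 without replicate 2 and -0.46 without replicate 3.

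Levels between genes were compared per kilobase of annotated exon (GENCODE M1, mm9). Atf4 (chr15:80085614-80087970) was the most abundant member, at 259.8 ± 24.3 in Paupar KD and 239 ± 11.2 in control KD CPM per kilobase (SD, n = 3 each), and its 1 SD range met that of Gars in control KD but not in Paupar KD. Gars was at 204 ± 10.4 in Paupar KD and 225 ± 7.46 in control KD CPM per kilobase, Slc7a5 at 184 ± 7.20 in Paupar KD and 201 ± 8.88 in control KD CPM per kilobase, and Asns (chr6:7625169-7643254) at 154 ± 9.32 in Paupar KD and 153 ± 5.18 in control KD CPM per kilobase. At the lower end were Cebpb at 18.04 ± 5.25 in Paupar KD and 15.5 ± 2.34 in control KD, Pycr1 at 7.11 ± 0.990 in Paupar KD and 6.33 ± 0.540 in control KD and Slc7a11 at 1.81 ± 0.684 in Paupar KD and 2.01 ± 0.308 in control KD CPM per kilobase. Counts of the serine pathway were uneven on this scale, and the limit on the Phgdh count given above applies here too. Psat1 (chr19:15979168-16021827) was at 123 ± 7.90 in Paupar KD and 113 ± 2.89 in control KD CPM per kilobase and Psph (chr5:130271434-130293129) at 49.9 ± 3.68 in Paupar KD and 40.4 ± 1.43 in control KD CPM per kilobase, while Phgdh (chr3:98117093-98143913) was at 0.0571 ± 0.0389 in Paupar KD and 0.0265 ± 0.0257 in control KD. The synthetases spanned from Gars, above, down to Yars at 27.9 ± 2.60 in Paupar KD and 29.2 ± 0.600 in control KD CPM per kilobase. Exon length joins all annotated transcripts of a gene, so a gene with long rare exons is placed too low.

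Genes around the pathway gave 0 edgeR calls in each of 5 lists, and DESeq2, which called 3.9% of all genes, gave 4 in the XBP1 and ATF6 list and 0 in the rest. Without Paupar KD replicate 3, edgeR called 7 of 26 further ATF4 targets, 7 of 18 XBP1 and ATF6 genes and 1 of 11 remaining cytosolic synthetase genes, where it called 10.3% of all genes. Quality weights called 6 of 26 further ATF4 targets, 11 of 18 XBP1 and ATF6 genes and 1 of 11 remaining cytosolic synthetase genes, where they called 13% of all genes. Of 7 eIF2 kinase and phosphatase genes, 1 log2 fold change was positive and 6 were negative (median -0.066, with 3 positive under upper-quartile factors). Their median was 0.020 (4 positive and 3 negative) without Paupar KD replicate 1, -0.14 without replicate 2 and -0.15 without replicate 3. The smallest p was that of Ppp1r15b, the constitutive eIF2 phosphatase subunit, at 235, 293 and 329.8 CPM in Paupar KD and 307, 327 and 324 CPM in control KD (edgeR adjusted p = 0.526). Of 30 further ATF4 targets and partners 26 were tested, with 5 positive and 21 negative values (median -0.12). Slc38a2, a transporter of small neutral amino acids that cells induce when starved of them, had the smallest p, at 133, 195 and 217 CPM in Paupar KD and 231, 231 and 239.7 CPM in control KD (edgeR adjusted p = 0.294). Set against the control mean, the median of these 26 lay at a log2 difference of -0.57, -0.17 and 0.19 in Paupar KD replicates 1 to 3, with replicate 1 lowest and replicate 3 highest as for the stress signalling members. Their median log2 fold change was 0.00071 without replicate 1 and -0.37 without replicate 3.

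Set against the control mean, the remaining cytosolic synthetase genes had a median log2 difference of 0.077, 0.096 and 0.0042 and the mitochondrial ones of 0.10, 0.069 and -0.041 in Paupar KD replicates 1 to 3. Of the 11 remaining cytosolic synthetase and scaffold genes, 8 were positive and 3 negative (median 0.047, and 0.016 without Paupar KD replicate 1), with the smallest p for Qars, for glutamine, at 110.2, 85.5 and 77.9 CPM in Paupar KD and 71.9, 70.95 and 69.9 CPM in control KD (edgeR adjusted p = 0.232). Of 17 mitochondrial synthetases, 9 were positive and 8 negative (12 and 5 with upper-quartile factors, median 0.025, and 0.0049 without Paupar KD replicate 2 or 0.060 without replicate 3), with the smallest p for Vars2, at 37.3, 29.8 and 26.6 CPM in Paupar KD and 26.4, 24.6 and 27.4 CPM in control KD (edgeR adjusted p = 0.348). Lars2, the mitochondrial leucine enzyme, is named after its values were seen, since it had the largest log2 fold change of that list and varied among the controls too, at 649.6, 477 and 529 CPM in Paupar KD and 571, 413 and 222 CPM in control KD (edgeR log2 fold change 0.46 ± 0.30 SE, adjusted p = 0.435). The XBP1 and ATF6 arm of the unfolded protein response, which makes chaperones, had another shape in its medians by library, at 0.20, 0.31 and 0.17. Of its 18 genes, 12 were positive under each of the scalings (median 0.21). In 9 of the 18, all Paupar KD values were above all controls, where 13.7% of all genes did so. In 1, Edem1, all were below, where 13.3% of all genes did so. The 6 negative genes were Atf6, Ern1, Dnajb9, Herpud1, Edem1 and Calr. All of these but Calr had replicate 1 lowest and replicate 3 highest, the order of most stress signalling members. The smallest p of this list was that of Sdf2l1, an endoplasmic reticulum chaperone partner, at 199, 169 and 161 CPM in Paupar KD and 119.96, 115 and 124 CPM in control KD (edgeR adjusted p = 0.0859). No test of the difference between these lists was made.

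**Figure D5:**
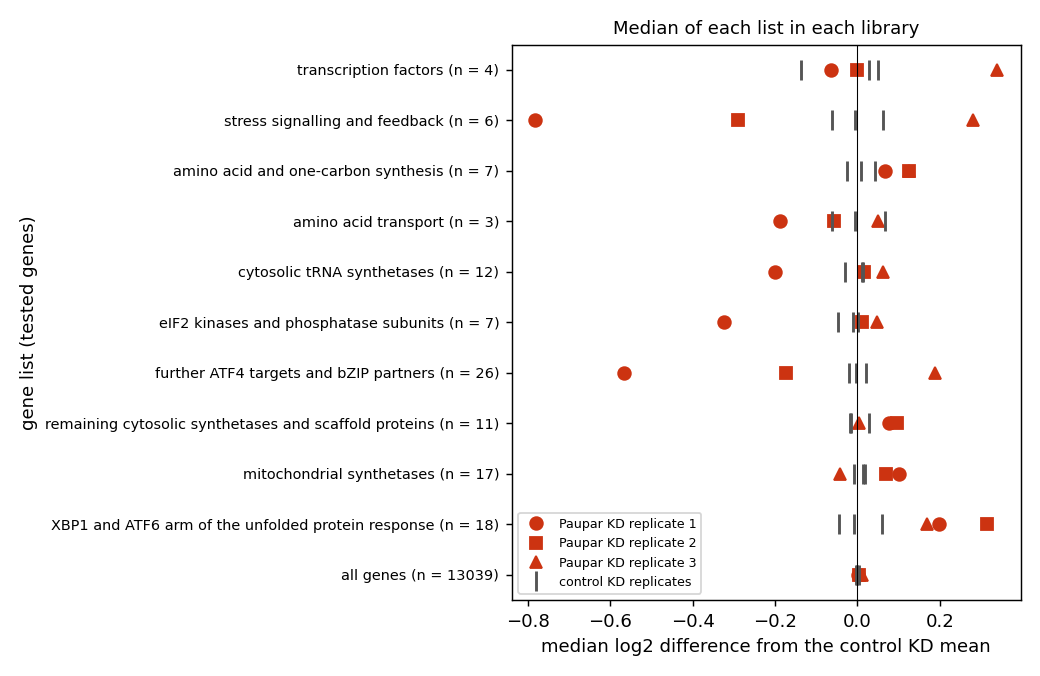
Each row is a gene list, with the median log2 difference from the control KD mean over its tested genes in each Paupar KD library (red, shape for the replicate) and each control KD library (grey ticks). Stress signalling members lie at -0.78 in replicate 1 and 0.28 in replicate 3, and further ATF4 targets at -0.57 in replicate 1 and 0.19 in replicate 3. All genes lie at about 0 in every library, which the TMM scaling largely sets. For the synthesis enzymes the points of replicates 2 and 3 coincide.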

How the data were processed

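Libraries were made with an Illumina TruSeq RNA kit, per the labels' protocols. The authors deposited 1 table of raw read counts per library, with no normalization. The submitters' processing notes name CASAVA 1.8.2, HISAT2, HTSeq, DESeq2 and the build mm9, without saying what each did, whether strand was used or which gene models were counted. Counts were fitted across all genes with edgeR 4.0.16 (R 4.3.3): filterByExpr (minimum count 10), which left 13039 genes, TMM factors, and the robust quasi-likelihood test with Benjamini-Hochberg adjustment over all genes at 0.05. A standard error is the size of the log2 fold change divided by the square root of F. CPM use the TMM factors. DESeq2 1.42.0 and limma 3.58.1 served as alternatives. The fit was also run on simulated counts with the same spread in both groups, which is unlike the unequal spread of these libraries. Log2 differences by library used a prior count of 2. Nothing in the labels says that replicates came from separate cultures, so a p-value speaks only of library-to-library spread, part of which may be technical. No libraries agreed within sampling noise. Members, gene lists and tests were chosen with earlier results of these data known. Full values were given for 9 preset members, those without overlap and the 3 largest changes per direction, then for others after their values were seen; in other lists the gene with the smallest p is named.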

Additional observations from a re-analysis of the deposited data

How the results depend on the processing

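The count of members called, 0 in each direction, held under other scaling factors, filters, DESeq2, limma-voom, no robust estimation and thresholds of 0.1 and 0.01. It was 1 lower with quality weights, and 0 to 3 lower with 1 library left out (3 without Paupar KD replicate 3); the cause was not tested. With a replicate block it was 0 in each direction. The numbers share no stated pairing, and deviations of same-numbered libraries correlated at 0.072, -0.011 and 0.0061. The median log2 fold change of synthesis enzymes ranged 0.072 (without Paupar KD replicate 3) to 0.14 with 1 library left out. Of 32 members, 20 kept their sign in all 16 alternatives and 12 changed it in at least 1, none of them called. With upper-quartile factors, which shifted the median of all genes to 0.034, log2 fold changes turned to 0.020 (Atf5), 0.014 (Sars), 0.00026 (Nars), 0.0097 (Cars) and 0.023 (Tars). With quality weights they turned to 0.017 (Atf5), 0.020 (Slc7a11), 0.019 (Sars), 0.069 (Nars), 0.050 (Cars) and 0.041 (Tars), and without a low-count filter to -0.0030 (Asns). With 1 library left out the ranges were -0.029 to 0.051 (Asns), -0.043 to 0.041 (Atf5), -0.084 to 0.028 (Cars), -0.045 to 0.36 (Cebpb), -0.25 to 0.021 (Chac1), -0.39 to 0.20 (Ddit3), -0.12 to 0.036 (Nars), -0.27 to 0.40 (Ppp1r15a), -0.14 to 0.12 (Sars), -0.35 to 0.12 (Slc7a11), -0.10 to 0.11 (Tars) and -0.56 to 0.25 (Trib3). Phgdh, at 0 to 4 counts, was the 1 member not tested.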

Other observations

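Outside the members, some further ATF4 targets also varied widely between the Paupar KD libraries. They were chosen after their values were seen. Ero1l, an endoplasmic reticulum oxidase, was at 116, 259 and 411 CPM in Paupar KD replicates 1 to 3, against 389, 396 and 335 CPM in control KD replicates 1 to 3 (edgeR adjusted p = 0.485). Ddit4, an inhibitor of mTORC1 signalling, was at 65.1, 87.3 and 166 CPM in Paupar KD and 185, 175 and 140.1 CPM in control KD (edgeR adjusted p = 0.309). Mthfd1l, which acts beside MTHFD2 in mitochondrial folate metabolism, was at 66.9, 70.8 and 153 CPM in Paupar KD and 135, 139 and 133 CPM in control KD (edgeR adjusted p = 0.398), while Mthfd2 itself was even. Cbs, an enzyme of cysteine synthesis, ran the other way, at 205, 157 and 111 CPM in Paupar KD and 158, 159 and 176 CPM in control KD (edgeR adjusted p = 0.888).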
